A study of Homo sapiens with 6 samples.

Results

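Glucocorticoid receptor (GR) binding after dexamethasone was mapped in cell lines named GR cell and MR/GR cell, and 334 sites of 43713 were called in the MR/GR cell alone. Sites were regions merged from peaks overlapping by at least 1 bp over 6 peak lists, 3 per line. A site counted as MR/GR-only when 2 or 3 MR/GR-cell lists and no GR-cell list had a peak there. The sites were chosen by the peak calls of these 6 lists, so their number and their absence from the GR cell describe the lists and carry no test. MR/GR-only sites made up 0.764% of all sites. The opposite class, with peaks in 2 or 3 lists of the GR cell and none of the MR/GR cell, held 21767 sites or 49.8%.

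Both stable lines were made from U-2OS, a human osteosarcoma line. One line is named for GR and the other for the mineralocorticoid receptor (MR) together with GR, and both were given 100 nM dexamethasone for 2 hr, or DMSO as vehicle, before immunoprecipitation with a GR antibody. The groups described are the GR cell with dexamethasone, the MR/GR cell with dexamethasone, and both lines with vehicle. Each receptor combination was represented by 1 line, and the sources used here do not give whether a line is a clone or how its receptors were introduced. Separate cultures are not stated for the 3 lists of a group, so the spread that a p-value rests on may be technical.

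GR is a steroid hormone receptor that waits in the cytoplasm with chaperone proteins, enters the nucleus once a glucocorticoid such as dexamethasone is bound, and there acts as a transcription factor. MR is its closest relative, with a similar DNA-binding domain. The receptors recognise the same kind of DNA element, can associate with one another, and can both be bound by glucocorticoids. A peak list records where receptor signal passed a calling threshold, and not how much receptor was bound.

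Dexamethasone lists held 37650, 30912 and 26191 peaks in the GR cell and 3713, 10459 and 6660 in the MR/GR cell. Every peak of a list had one width (354, 366 and 424 bp in the GR cell and 280, 284 and 304 bp in the MR/GR cell), apart from 1 peak of GR list 2. Heights, scores and read depth are not in the lists, so a site without a peak may be unbound or may lie under the threshold.

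MR/GR-only sites were a small part of what the MR/GR cell held. They were 334 of the 5965 sites in 2 or 3 MR/GR-cell lists, 5.60% (Wilson 95% interval 5.04 to 6.21). By list, they took 104 of the peaks of MR/GR list 1 (2.80%), 325 of list 2 (3.11%) and 302 of list 3 (4.53%), a mean of 3.48% ± 0.925 (SD, n = 3 lists). List 3 had the highest share although list 2 had the most peaks. The remaining 5631 sites of 2 or 3 MR/GR-cell lists also had a GR-cell peak and are called shared sites below.

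Most MR/GR-only sites rested on a pair of lists. Lists 2 and 3 together, without list 1, gave 230 of the 334 sites (68.9%). All 3 lists had a peak at 63 sites (18.9%, Wilson 95% interval 15.0 to 23.4), lists 1 and 2 at 32 and lists 1 and 3 at 9. Among shared sites, all 3 lists had a peak at 3165 of 5631 (56.2%, 54.9 to 57.5). The rule used these lists, so the contrast is a description. List 1 was the shortest, and its length enters every count that needs it. Without list 2 the same rule left 72 sites, and without list 3 it left 95, against 294 without list 1.

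**Figure D1:**
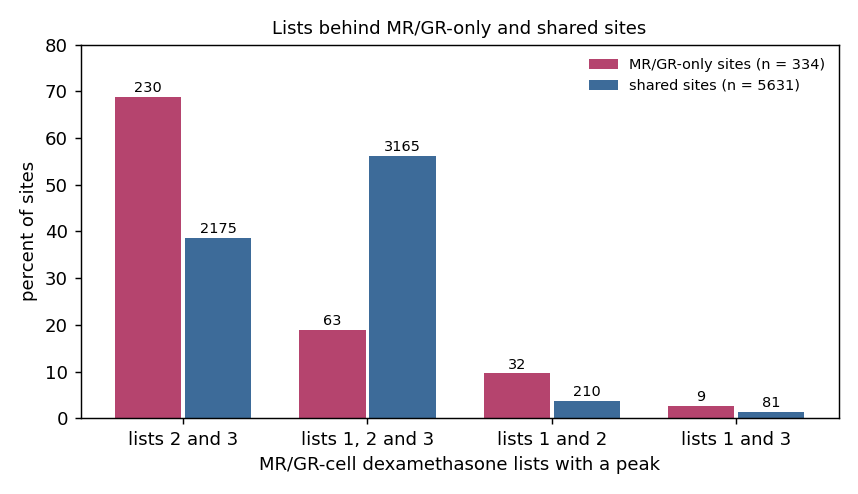
Percent of MR/GR-only sites (334) and of shared sites (5631) by the MR/GR-cell dexamethasone lists that had a peak, with the number of sites above each bar. MR/GR-only sites were mostly those of lists 2 and 3 (230), while shared sites were mostly those of all 3 lists (3165).

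How well MR/GR-cell peaks were found again in a list that had not been used to pick them was then measured. Of 450 sites with a peak in MR/GR list 3 and in no GR-cell list, 293 (65.1%, Wilson 95% interval 60.6 to 69.4) had a peak in list 2. For sites of list 3 that lay in 2 or 3 GR-cell lists, list 2 had a peak at 86.5% of 5958 (85.6 to 87.4). Starting from list 2, list 3 had a peak at 293 of 2041 sites without a GR-cell peak (14.4%, 12.9 to 15.9) and at 66.8% of 7716 sites in 2 or 3 GR-cell lists (65.8 to 67.9). Peaks outside the GR-cell lists were thus found again less often in both directions, with no test made of it.

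The same order held in all 6 ordered pairs of MR/GR-cell lists. Recall ranged from 4.65% (list 2 looked up in list 1) to 65.1% (list 3 looked up in list 2) for sites in no GR-cell list. With 3 GR-cell lists it ranged from 45.0% to 95.8% over the same pairs. Within each pair, recall was higher with each further GR-cell list that had a peak. The pairs share lists, and recall depends on the length of the list searched, so no p is given. List 2 alone supplied 1716 of the 1926 sites with a peak in a single MR/GR-cell list and no GR-cell list (89.1%).

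**Figure D2:**
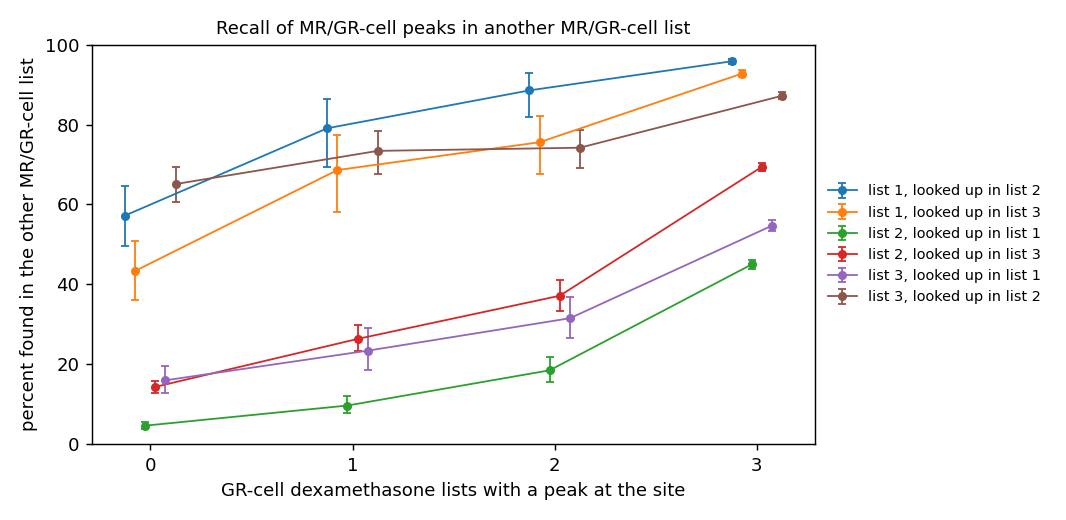
Percent of sites with a peak in one MR/GR-cell list that had a peak in another, by the number of GR-cell dexamethasone lists with a peak there. Points are ordered pairs of lists and bars are Wilson 95% intervals; every pair was lowest at 0 GR-cell lists (4.65% to 65.1%) and highest at 3 (45.0% to 95.8%).

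Absence from the GR cell was checked in the same way, by leaving out a GR-cell list and then looking in it. Of 499 sites in 2 or 3 MR/GR-cell lists without a peak in GR lists 2 and 3, GR list 1 had a peak at 165 (33.1%, Wilson 95% interval 29.1 to 37.3). GR list 2 had a peak at 24 of 358 sites absent from the other two lists (6.70%, 4.55 to 9.78), and GR list 3 at 17 of 351 (4.84%, 3.05 to 7.62). List 1 was the longest of the 3 and list 3 the shortest. The 206 sites found in this way have 1 GR-cell list and lie just outside the rule. The MR/GR-cell and GR-cell peaks of these 206 sites overlapped by a median of 287 bp and at least 126 bp, so none of them missed the rule by a marginal contact of peak edges. The smallest overlaps were 126 bp at chromosome 1, 151960923 to 151961466 (hg19, counted from 1), and 180 bp at chromosome 17, 38470749 to 38471226.

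Most MR/GR-only sites had a GR-cell peak within 100 kb. The median gap from the edge of a site to the edge of the nearest GR-cell peak was 9111 bp (quartiles 2118 and 26417, range 35 to 397776). Of the 334 sites, 178 (53.3%, Wilson 95% interval 47.9 to 58.6) had a GR-cell peak within 10 kb, 319 (95.5%) within 100 kb, and all within 1 Mb. For the 1925 sites of a single MR/GR-cell list with a GR-cell peak on the same sequence, the median gap was 13736 bp and 42.2% (39.99 to 44.4) lay within 10 kb. From a shared site to the nearest other site with a GR-cell peak, the median was 11450 bp and 45.6% lay within 10 kb. Since the rule itself used the GR-cell lists, these distances are descriptions without a test. With 41453 sites holding a GR-cell peak, much of the genome may lie near one. The share of the genome within these distances was not computed, so closeness beyond that density is not shown.

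**Figure D3:**
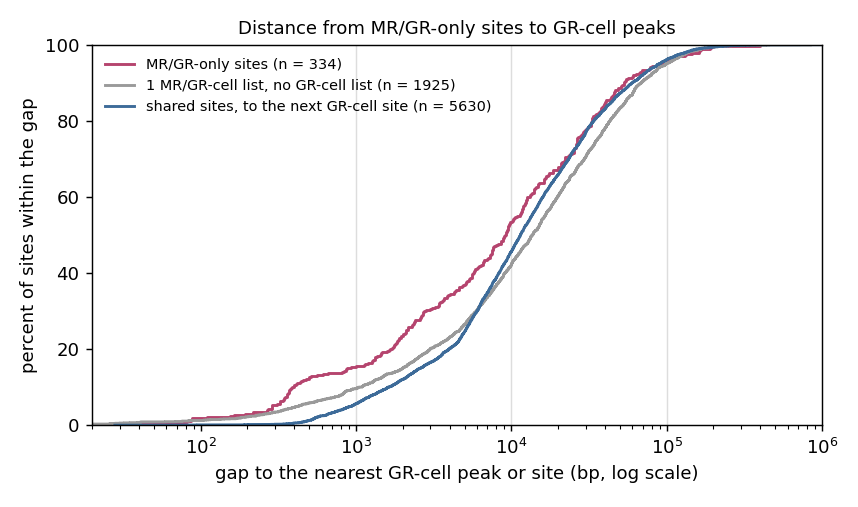
Percent of sites whose gap to the nearest GR-cell peak was at most the value on the horizontal log axis (bp), for MR/GR-only sites, for sites of 1 MR/GR-cell list and no GR-cell list, and, to the nearest other site, for shared sites. The curve of MR/GR-only sites stands above the others between 300 bp and 10 kb, with 15.3% of sites within 1 kb against 9.61% and 5.68%, and the curves meet near 100 kb. Shared sites hold a GR-cell peak themselves, so the spacing of peaks within a GR-cell list limits their short gaps.

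Much of the separation between these curves arose at short range. Gaps of up to 1 kb were seen at 51 MR/GR-only sites (15.3%, Wilson 95% interval 11.8 to 19.5), at 185 of the 1925 single-list sites (9.61%, 8.37 to 11.0) and at 320 of 5630 shared sites (5.68%, 5.11 to 6.32). Shared sites hold a GR-cell peak themselves, and peak centres within GR lists 1 to 3 were at least 699, 687 and 811 bp apart. That spacing limits short gaps from shared sites, so the contrast with them is partly set in advance. It does not bound the gaps of the other classes, but it may add to their short gaps. A site closer than that to a called peak may lack a call in that list because of the limit, and so pass the rule. Where the neighbour is called in the same MR/GR-cell list, the spacing within that list limits the gap as well. How much of the short-range values this sets was not tested. Within 1 kb the MR/GR-only sites were gathered between 250 and 500 bp, with 30 sites, against 12 sites up to 250 bp and 9 between 500 and 1000 bp. Sites in all 3 MR/GR-cell lists had such a near peak in 15 of 63 cases (23.8%, 15.0 to 35.6), and sites in 2 lists in 36 of 271 (13.3%, 9.75 to 17.8). The intervals of the last 2 shares overlap. With 1 list left out, the share of MR/GR-only sites within 1 kb ranged from 11.4% (without GR list 1) to 23.2% (without MR/GR list 3), and the lower value is close to that of single-list sites.

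The near sites were then set against the closest spacing that each list allowed. No GR-cell list held a pair of peak centres closer than 699 bp (list 1), 687 bp (list 2) or 811 bp (list 3). In the MR/GR cell the smallest spacings were 613, 567 and 600 bp. Pairs under 1 kb apart numbered 0.834, 0.573 and 0.183 per 100 peaks in GR lists 1 to 3, and 0.754, 1.00 and 0.751 in MR/GR lists 1 to 3. GR list 3, with the widest peaks, had the fewest close pairs.

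Of the 334 MR/GR-only sites, 45 had their centre under 1 kb from the centre of a GR-cell peak. The centre lay nearer to a peak of GR list 1 than that list's smallest spacing at 17 sites, of list 2 at 13 and of list 3 at 32. At 35 sites this was so for at least 1 GR-cell list, and at 12 sites for all 3. In such a list a second peak would have stood closer to a called peak than any pair in that list. An absent call in that list cannot be told apart from a limit on spacing. This covers all 3 GR-cell lists at the 12 sites only. At the rest of the 35, at least 1 GR-cell list had no called peak that close and still had no peak at the site. The remaining 299 of the 334 sites had no GR-cell peak that close in any list.

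**Figure D4:**
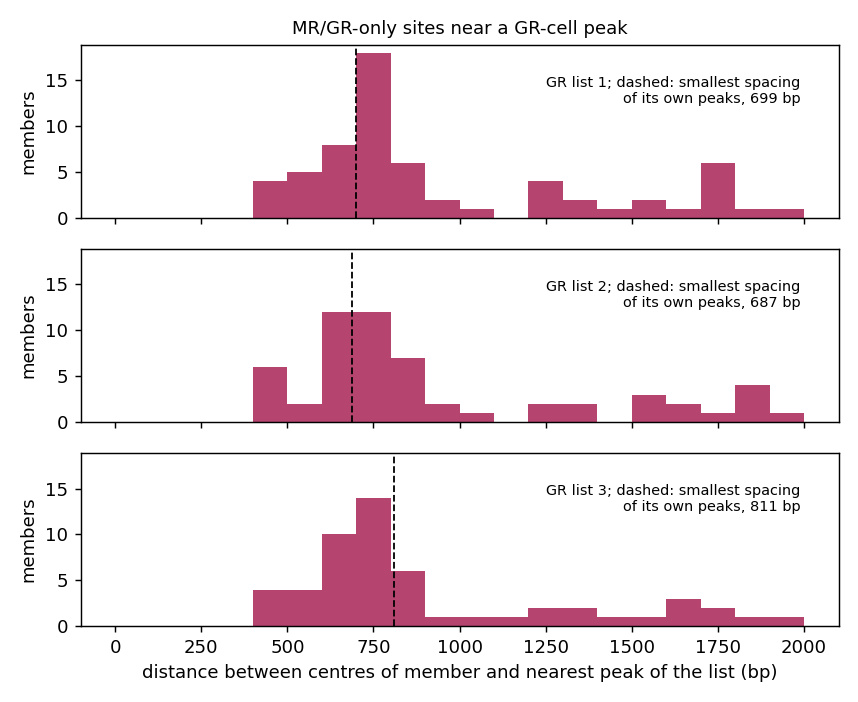
Number of MR/GR-only sites by the distance from their centre to the centre of the nearest peak of GR list 1, 2 or 3, for distances under 2000 bp in steps of 100 bp. The dashed lines mark the smallest spacing of peaks within the GR-cell list (699, 687 and 811 bp); 17, 13 and 32 sites lie left of it.

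The neighbours of near MR/GR-only sites were often called in both lines. For the 51 sites with a gap of up to 1 kb, the nearest site with a GR-cell peak was itself in 2 or 3 MR/GR-cell lists in 25 cases (49.0%, Wilson 95% interval 35.9 to 62.3). That share was 32.3% (24.8 to 40.8) for gaps of 1 to 10 kb and 19.1% (13.5 to 26.4) for gaps of 10 to 100 kb. Over all 41453 sites with a GR-cell peak it was 13.6%. The nearest site was in all 3 GR-cell lists for 42 of the 51 near sites (82.4%), against 55.3% of all sites with a GR-cell peak. Neither share was computed for the neighbours of shared or single-list sites. Neither is therefore shown to be particular to MR/GR-only sites.

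Some near sites were the second peak of a close pair in the MR/GR cell. In 30 of the 51 cases at least 1 MR/GR-cell list had a peak both at the MR/GR-only site and at the neighbouring GR-cell site. Such pairs numbered 13 in MR/GR list 1, 29 in list 2 and 18 in list 3. Their centres lay a median of 712, 779 and 773 bp apart. In list 2, 20 of the 29 pairs were closer than the smallest spacing of GR list 3, 8 closer than that of GR list 1 and 6 closer than that of GR list 2. In list 1 these numbers were 11, 5 and 4 of 13, and in list 3 they were 13, 1 and 0 of 18, so few or none of the pairs of list 3 fell under the limits of GR lists 1 and 2.

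The sites nearest to a GR-cell peak show what the rule admits. Among those in all 3 MR/GR-cell lists, chromosome 12, 54590805 to 54591201, lay 87 bp from a site (54591289 to 54591714) of all 3 GR-cell lists that the MR/GR cell lacked. The site at chromosome 2, 39750836 to 39751152, lay 88 bp from a GR-cell site of the same kind. Next came chromosome 3, 44934181 to 44934564 (192 bp), chromosome 5, 2135091 to 2135541 (266 bp), and chromosome X, 47656571 to 47656882 (287 bp). Each of these 5 had its neighbour in all 3 GR-cell lists, and centre distances were 460 to 698 bp. Among sites in 2 lists, all of them lists 2 and 3, the smallest gaps were 35 bp at chromosome 5, 92137672 to 92138053, and 50 bp at chromosome 4, 162680846 to 162681170. They were followed by 78 bp at chromosome 3, 99766229 to 99766600, 82 bp at chromosome 5, 52464206 to 52464596, and 110 bp at chromosome 1, 61803668 to 61804034.

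At the other end, 15 MR/GR-only sites lay over 100 kb from any GR-cell peak, and 1 of them was in all 3 MR/GR-cell lists. That site, chromosome 6, 48003896 to 48004329, had a gap of 100669 bp. Among sites of all 3 lists it was followed by chromosome 4, 108540295 to 108540665 (96.9 kb), chromosome 5, 146911767 to 146912106 (80.7 kb), and chromosome 4, 129275436 to 129275809 (69.8 kb). The next were chromosome 2, 80848884 to 80849223 (68.9 kb), chromosome 15, 63268592 to 63268924 (53.4 kb), and chromosome 12, 25439862 to 25440217 (50.5 kb). Gaps of 44.4, 34.6 and 33.4 kb were measured at 157852494 to 157852822 on chromosome 4, 11685931 to 11686311 on chromosome 6 and 13723106 to 13723463 on chromosome 12. For 8 of these 10 sites the nearest GR-cell site had no MR/GR-cell peak at all, near the 77.4% of all 41453 sites with a GR-cell peak that had none. The exceptions were the sites at 146911767 and 11685931, whose neighbours were in 2 and 3 MR/GR-cell lists.

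The largest gaps of all belonged to sites of 2 lists, named here after their values were seen. The site at chromosome 19, 37555877 to 37556368, in lists 2 and 3, was 398 kb from any GR-cell peak. On chromosome 3, the site at 96850331 to 96850765 (lists 1 and 3) had a gap of 199 kb, and on chromosome 7, the site at 64940615 to 64941062 (lists 1 and 2) one of 193 kb. Each of these 3 sites was lost when peak centres had to lie within 100 bp, and those on chromosomes 19 and 7 also when peaks had to overlap by 50% of the shorter. Of the 15 sites over 100 kb from a GR-cell peak, 11 were kept under the former criterion and 12 under the latter. Genes are not named for these sites, because a gene annotation and a genome sequence of hg19 were not used here.

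Around MR/GR-only sites, GR-cell sites were about as dense as around other MR/GR-cell sites. Within 100 kb of their centres lay a median of 5 sites with a GR-cell peak (quartiles 3 and 6), against 4 around shared sites (3 and 6), 4 around single-list sites (2 and 6), and 3 around sites of all 3 GR-cell lists that the MR/GR cell lacked (2 and 5). Other sites of 2 or 3 MR/GR-cell lists had a median of 1 within 100 kb of an MR/GR-only site (quartiles 0 and 2). There was none for 36.5% of MR/GR-only sites, 43.8% of shared sites and 45.9% of single-list sites. For sites of all 3 GR-cell lists that the MR/GR cell lacked, there was none for 63.1%.

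Most MR/GR-only sites had no other such site within 100 kb. Another such site lay within 10 kb of 2 of the 334, within 100 kb of 30 (8.98%, Wilson 95% interval 6.36 to 12.5) and within 1 Mb of 115 (34.4%, 29.5 to 39.7). The shares expected from even placement along the genome were not computed, so these values do not show whether the sites are clustered or spread. The 30 formed 15 pairs, and no group of 3 or more was joined by gaps of at most 100 kb. Both sites of a pair were in all 3 MR/GR-cell lists in 2 cases, on chromosome 12 (43150852 to 43203367) and chromosome 3 (101808720 to 101850190). With gaps of up to 1 Mb, the largest groups were 5 sites on chromosome 5 (72633972 to 73714853), 4 on chromosome 10 (78011780 to 78319195) and 4 on chromosome 12 (65927389 to 66460484). These groups were singled out after their values were seen. They held 19, 8 and 24 sites with a GR-cell peak, and none of their 13 MR/GR-only sites was in all 3 lists.

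By chromosome, MR/GR-only sites were found on the 22 autosomes and X. Chromosome 5 had the most, 40 of 334 (12.0%, Wilson 95% interval 8.92 to 15.9), against 7.10% of shared sites (6.46 to 7.80) and 7.89% of single-list sites. Chromosome 17 had 22 (6.59%, 4.39 to 9.77), against 3.62% of shared sites (3.17 to 4.14). On these 2 of 23 chromosomes the interval of the MR/GR-only share lay wholly above that of the shared sites, and on none wholly below. With 23 chromosomes looked at and sites of a region not independent, this is a description without a test. Chromosome 2, with the largest share of shared sites (10.2%), had 25 MR/GR-only sites (7.49%, 5.12 to 10.8).

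**Figure D5:**
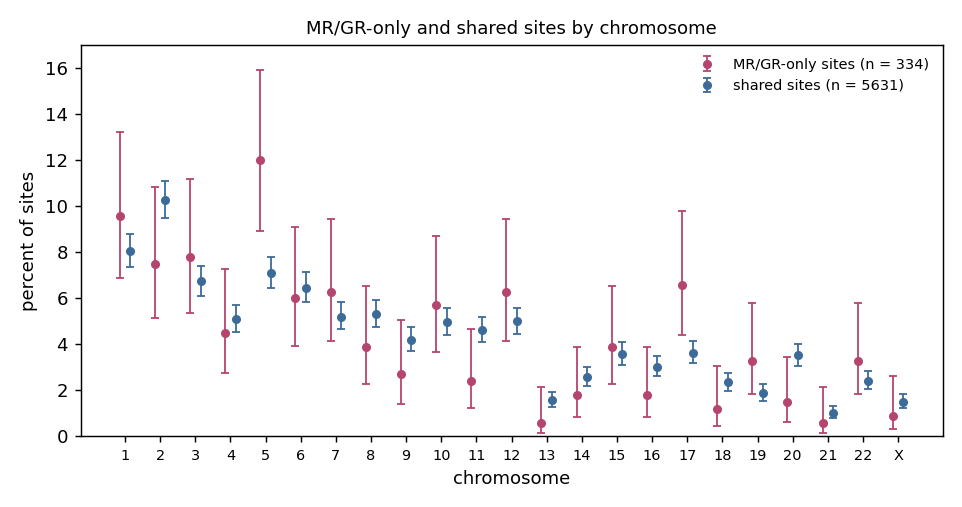
Percent of MR/GR-only sites (334) and of shared sites (5631) on each chromosome, with Wilson 95% intervals over sites. Chromosome 5 (12.0% against 7.10%) and chromosome 17 (6.59% against 3.62%) are the ones where the intervals do not overlap.

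Seen as a part of the sites in 2 or 3 MR/GR-cell lists of a chromosome, MR/GR-only sites ranged from 2.22 per 100 on chromosome 13 (2 sites) to 9.73 on chromosome 17. Chromosome 19 had 9.40 (11 sites), chromosome 5 had 9.09 and chromosome 22 had 7.48 (11 sites). At the low end were chromosome 20 with 2.46 (5 sites), chromosome 18 with 2.94 (4 sites) and chromosome 11 with 2.99 (8 sites). All neighbours in this order have overlapping intervals, and so do its ends, chromosome 13 (0.612 to 7.74) and chromosome 17 (6.52 to 14.3). Which chromosome is lowest or highest is therefore not resolved. Intervals wholly below that of chromosome 17 were those of chromosomes 20 (1.06 to 5.64), 11 (1.52 to 5.78) and 2 (2.83 to 6.06). They also lay wholly below that of chromosome 5 (6.75 to 12.1), and no other interval lay wholly below either. With many chromosomes looked at and sites of a region not independent, this separation is a description without a test.

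Peak positions agreed somewhat less closely between lists at MR/GR-only sites than at shared sites. The median offset between the centres of MR/GR lists 2 and 3 was 40 bp at 293 MR/GR-only sites (quartiles 21 and 77) and 29 bp at 5340 shared sites (quartiles 13 and 55.3). It was 47 against 33 bp for lists 1 and 2, and 39 against 31 bp for lists 1 and 3. The offset was thus higher at MR/GR-only sites in each of the 3 pairs of lists, which share lists, and no test was made. No MR/GR-only site had more than 1 peak of the same list.

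Vehicle lists were not used by the rule, but a comparison of the lines at these sites is not free of it. A GR-cell vehicle peak at a site also called in a treated GR-cell list cannot count, because the rule removed such sites. An MR/GR-cell vehicle peak at a site also called in treated MR/GR-cell lists can count. The test below therefore cannot separate a difference between the lines from this selection. Of the vehicle peaks of the MR/GR cell, 1 of 132, 0 of 11 and 1 of 40 lay at an MR/GR-only site (0.758%, 0% and 2.5%). In the GR cell these were 0 of 122, 4 of 238 and 0 of 228 (0%, 1.68% and 0%). The ranges of the lines overlap. The shares were 1.09% ± 1.28 and 0.560% ± 0.970 (SD, n = 3 lists each), a difference of 0.526 percentage points (SE 0.928). The two-sided exact permutation test gave p = 0.7, where 3 lists against 3 cannot give less than 0.1, and the difference changed sign, to -0.181, without MR/GR vehicle list 3.

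Counted by site, 4 of the 334 MR/GR-only sites had a peak in a GR-cell vehicle list (1.20%, Wilson 95% interval 0.467 to 3.04) and 1 in an MR/GR-cell vehicle list (0.299%, 0.0529 to 1.68). Over all sites these shares were 0.787% and 0.249%, and over shared sites 0.728% and 0.266%. Single-list sites had the reverse order, 0.675% and 1.35%. All of these values lay inside those intervals. The 1 site with vehicle peaks of the MR/GR cell was chromosome 22, 35887399 to 35887775, called in vehicle lists 1 and 3 and in treated lists 2 and 3. The 4 others had a peak in GR-cell vehicle list 2, the longest GR-cell vehicle list, although no treated GR-cell list had one. A pair of them lay at 61803668 to 61804034 on chromosome 1 and 78251861 to 78252232 on chromosome 10, and the rest at 127153127 to 127153430 on chromosome 12 and 18570568 to 18570971 on chromosome 19. The last of these was not an MR/GR-only site when peak centres had to lie within 100 bp. Their gaps to the nearest treated GR-cell peak were 110, 16123, 7469 and 1319 bp. All 5 sites were in treated MR/GR lists 2 and 3, and none was in list 1.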

How the data were processed

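The deposited files are peak lists with a chromosome, a start and an end (whole-number positions in bp), without height, score or p-value. The build is hg19, and the tools are HOMER 4.8.3, Picard 1.115, SAMtools 1.3.1, Bowtie and Trim Galore 0.4, per the submitters' processing notes; the role of each and the calling threshold are not given in the sources used here. Per the names of the deposited lists, each was set against input, and each of the 4 immunoprecipitations has 3 numbered lists, taken as replicates and compared as called one by one.

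Peaks of the 6 dexamethasone lists were merged at an overlap of 1 bp or more, which gave the same 43713 sites as bedtools 2.31.1. Gaps run from the edge of a site to the edge of the nearest GR-cell peak. Shares have Wilson 95% intervals, which cover counting error over sites only, since neighbouring sites are not independent. Vehicle shares were compared by an exact permutation test over lists, two-sided, with 20 arrangements. Sites were named by coordinates: sites of all 3 MR/GR-cell lists, the 10 farthest from and 5 nearest to a GR-cell peak; groups of 3 or more within 100 kb; sites with a vehicle peak; and the 5 nearest sites of 2 lists. Members and tests were chosen with earlier results of these data known. Alternatives were other overlap criteria, wider GR-cell peaks, other numbers of lists and leaving out each list. Merging, the rule and the distances were tested on simulated data. Those data held no gaps under 1 kb and no close pairs of peaks, so the short-range results were not covered. Annotation and motifs were not analysed here, since the gene and promoter tables at hand belong to GRCh38. Calculations were made in Python 3.11.15 (SciPy 1.17.1, pandas 2.3.3, numpy 2.4.6, and matplotlib 3.10.9 for plots).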

Additional observations from a re-analysis of the deposited data

How the results depend on the processing

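The number of MR/GR-only sites, 334, was 336 with centres at most 100 bp apart and 329 with an overlap of 50% of the shorter peak. Other settings could only keep or remove sites of the 334. Widening GR-cell peaks by 100 to 1000 bp left 328 to 283, and dropping sites of GR-cell vehicle lists left 330. Merging the MR/GR-cell lists alone gives 334 by construction. So does keeping the main chromosomes, as no MR/GR-only site lay elsewhere. These settings do not show that the number is stable. When centres had to lie within 100 bp, 297 of the 334 were still among the 336. The number was 63 with all 3 MR/GR-cell lists required and 2260 with 1 list. Leaving out 1 list gave 72 (without MR/GR list 2) to 500 (without GR list 1). The median gap of 9111 bp went to 12351 or 14880 bp with GR-cell sites of at least 2 or all 3 lists, and to 6530 to 12497 bp with 1 list left out. The share within 10 kb went from 53.3% to 45.5% or 40.7%, and to 43.8% to 62.1% with 1 list left out, lowest without GR list 1. The share with another MR/GR-only site nearby was 0.599% within 10 kb and 34.4% within 1 Mb, against 8.98% within 100 kb and 5.56% (without MR/GR list 2) to 13.8% (without GR list 1) with 1 list left out. The share on chromosome 5 ranged from 9.40% (without GR list 1) to 13.9% and that on chromosome 17 from 6% to 7.37% with 1 list left out, alternatives chosen after seeing the data. Intervals were not computed at these settings. Whether the 2 shares still stood wholly above those of shared sites is therefore not shown. Recall was also taken with presence in every list, GR-cell lists included, judged by centres at most 100 bp apart. Peaks overlapping a GR-cell peak off centre then counted as in no GR-cell list, so the sites were not the same. Recall was 39.9% against 57.2% (list 1 looked up in list 2) and 52.6% against 65.1% (list 3 looked up in list 2). The vehicle difference of 0.526 points was 0 with all 3 lists required, because no vehicle peak of either line lay at those 63 sites. It was -0.667 peaks per list when peaks were counted, and -0.181 to 1.09 points with 1 list left out. With list number as replicate block the mean difference is 0.526 by arithmetic, and only the p-value could change (two-sided exact sign-flip p = 0.75). The labels do not pair the lists, and pairing was not checked on so few peaks. The cause of these moves was not tested, apart from the fewer lists required or left. Read depth is unknown, so no limit from depth can be given. Promoter and motif alternatives were not run.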
